A study of Mus musculus with 13 samples.

Results

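The genes described here were the replication-dependent histone genes of the mouse, 67 of the 24072 identifiers with a count in the deposited tables. They were chosen by name alone: identifiers of the NM_ type whose RefSeq symbol is a histone gene of the Hist1, Hist2, Hist3 or Hist4 cluster, or the newer symbol of such a gene. By class they comprised 6 genes for the linker histone H1, 18 for H2A, 18 for H2B, 12 for H3 and 13 for H4. By position (GRCm38.p6, the mm10 assembly) 54 lie in the Hist1 cluster on chromosome 13, 10 in Hist2 on chromosome 3, 2 in Hist3 on chromosome 11 and 1, H4f16 (older symbol Hist4h4), on chromosome 6. Newer symbols are used below, with the older symbol at first mention.

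The 13 libraries were RNA-seq libraries from the bone marrow of wild-type C57BL/6 mice. They were made from common lymphoid progenitors (CLP), cells that can still become B cells or other lymphocytes. Cells were sorted by 2 surface proteins, Ly6D and Gfra2, into Ly6D-Gfra2- (6 libraries), Ly6D+Gfra2- (4 libraries) and Ly6D+Gfra2+ (3 libraries). All groups share the wild-type genotype, the strain, the tissue and the absence of any treatment in the labels, which give no age and do not say whether the libraries of a group came from separate mice. The p-values therefore measure only the spread between libraries, which may be technical. Total RNA was amplified and made into libraries with the NuGEN Ovation RNA-Seq System and Ovation Ultralow V2 kits. Whether cDNA synthesis was primed at poly(A) tails is not given in the sources used here.

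Replication-dependent histone genes are transcribed in S phase, when new DNA has to be packed into nucleosomes: H3 and H4 form the core tetramer, H2A and H2B the flanking dimers, and H1 binds the linker DNA. Their mRNAs are the metazoan mRNAs that end in a conserved stem-loop and not in a poly(A) tail. NPAT activates their transcription, SLBP binds the stem-loop, and the U7 snRNP with the CPSF73 endonuclease cuts the transcript behind it. Some of these genes, among them H1f2, H2bc4 and H2bc21, are known also to give polyadenylated transcripts in cells that have left the cycle. A library of total RNA can therefore hold these mRNAs in proportions that depend on how cDNA synthesis was primed.

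The stem-loop is the element that sets these mRNAs apart, so it is shown for members the results below turn on. The pattern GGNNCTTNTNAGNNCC, searched on the transcript strand, was found in the mouse transcripts (GENCODE M21, GRCm38) of 46 of the 67 members. It was found in 209 of 58797 protein-coding transcripts of the whole annotation, or 0.355%, members included. The 16 capitals are the pattern, and 5 bases stand on either side.
H1f4: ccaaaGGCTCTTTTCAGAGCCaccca
H1f3: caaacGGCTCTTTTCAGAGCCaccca
H2ac20: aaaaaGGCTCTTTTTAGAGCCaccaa
H2bc14: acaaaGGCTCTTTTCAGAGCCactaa
H3c4: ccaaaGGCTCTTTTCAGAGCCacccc
H3c6: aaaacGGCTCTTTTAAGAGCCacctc
H4c4: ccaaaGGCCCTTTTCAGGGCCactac
H4c14: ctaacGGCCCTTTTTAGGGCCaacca
The form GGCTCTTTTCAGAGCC was the most frequent, in 26 members, followed by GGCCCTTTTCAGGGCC in 7 and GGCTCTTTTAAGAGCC in 6. The 2 paired arms of the stem match each other in each of these forms, while the loop differs in a single letter between the first and the third. The other 21 members, among them H1f5, H2ac15, H2bc13 and H2bc21, had no match in the annotated transcripts that were searched. This does not show that they lack the stem-loop, since many of these transcripts are shorter than the gene. The transcript that covered most of the gene held 743 of 794 bases for H1f5, 393 of 536 for H2ac15 and 381 of 473 for H2bc13. For H2bc21 and H1f1, also without a match, it held nearly the whole gene, 2620 of 2667 and 739 of 745 bases. A stem-loop in bases outside the transcripts could not be found.

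Many histone genes stand head to head in H2A and H2B pairs, and the pair of the Hist2 cluster whose counts varied most among the Ly6D+Gfra2+ libraries is shown with the whole stretch between its start sites. H2ac20 (Hist2h2ac) occupies chromosome 3, 96220413 to 96220880, on the minus strand, and H2bc21 (Hist2h2be) occupies 96221072 to 96223738 on the plus strand. The 191 bases between them (chr3:96220881-96221071, minus strand, from H2bc21 towards H2ac20, RefSeq, GRCm38.p6) carry CCAAT, its reverse complement ATTGG, and TATAAA in capitals.
H2ac20-H2bc21: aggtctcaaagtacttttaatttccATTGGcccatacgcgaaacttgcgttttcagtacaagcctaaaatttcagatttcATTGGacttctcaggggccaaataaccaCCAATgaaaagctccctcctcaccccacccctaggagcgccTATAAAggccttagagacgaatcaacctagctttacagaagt
Read towards H2ac20, TATAAA begins 42 bases before the start of H2ac20, CCAAT 83 bases before it, and ATTGG 111 and 166 bases before it. Over the window from 250 bases before to 50 bases after a start, on both strands, CCAAT was present in 85.7% of 63 member promoters (62 members) and in 37.4% of 32851 mouse promoters. All H1, H2A, H2B and H3 promoters searched held it, against 25% of the 12 H4 promoters. TATAAA was present in 55.6% of member promoters and 13.6% of all. The octamer ATTTGCAT, the site known to bind Oct-1 in H2B promoters, was present in 41.2% of H2B and 38.9% of H2A promoters, in 0 of the H1, H3 and H4 promoters, and in 1.74% of all promoters. These are matches of letters and no measure of binding.

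The libraries held between 6892728 and 23705975 counts, and the members took between 0.0839% and 0.148% of them. Between 49 and 62 of the 67 members had a count in a given library. Levels are given as CPM, counts scaled to a common library size. Ly6d was at 0.622 to 8.29 CPM in 5 of the Ly6D-Gfra2- libraries. It was at 213 CPM in the remaining 1, the library labelled Ly6D-Gfra2- replicate 3, which goes against its label. Gfra2 itself was at most 14.7 CPM where the label is Gfra2- and 286, 514 and 364 CPM where it is Gfra2+. Libraries carry the prefix P (replicates 1 to 3) or T (replicates 4 to 6), whose meaning the labels do not give; all Ly6D+Gfra2+ libraries are T. Some lists of cell-type markers moved with the groups. The summed CPM of 9 B lineage genes was 338 to 621, 496 to 860 and 3017 to 3405 in Ly6D-Gfra2-, Ly6D+Gfra2- and Ly6D+Gfra2+ libraries. That of 12 granulocyte and monocyte genes was 654 to 1417, 450.0 to 592 and 222 to 466. That of 6 lymphoid progenitor genes, which include Ly6d and Gfra2 themselves, was 4670 to 5541, 5239 to 6288 and 6190 to 6886. For this list the Ly6D+Gfra2+ libraries all lay above the Ly6D-Gfra2- libraries. The erythroid list and the mature B and plasma list overlapped between all groups. The sum of 10 erythroid genes was 15.6 to 429.5, 11.9 to 53.8 and 15.9 to 112.5. That of 7 mature B and plasma genes was 21.4 to 133, 66.5 to 119.7 and 30.3 to 208. The sum of 6 plasmacytoid dendritic genes, which include Ly6d, was 769 to 2203, 1749 to 2542 and 706 to 1012, so that the Ly6D+Gfra2+ libraries all lay below the Ly6D+Gfra2- libraries. The sum of 7 T and NK genes overlapped between the groups, at 59.8 to 73.1, 50.7 to 83.5 and 12.55 to 137 CPM. Of these 7 genes 1, 2 and 4 were at 0 in every library of the groups of 6, 4 and 3 libraries, a state reached more easily with fewer libraries. The part of other cell types in the histone values was not tested. In bulk RNA fewer cells in S phase and less histone mRNA per cell cannot be told apart.

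Summed over all 67 members, histone mRNA ranged from 781 to 1711 CPM over the 13 libraries. In Ly6D-Gfra2- libraries the sum was 1182, 884, 1143, 932, 878 and 781 CPM (mean 966.6 ± 159.8, SD, n = 6). In Ly6D+Gfra2- replicates 1, 2, 5 and 6 it was 1711, 1049, 1166 and 991 CPM (1229 ± 329, SD, n = 4). In Ly6D+Gfra2+ replicates 4, 5 and 6 it was 1521, 1557 and 1008 CPM (1362 ± 307, SD, n = 3). The means stood in the order of the 3 groups, but the groups overlapped in every comparison, and the differences between neighbouring groups were smaller than the larger SD of each pair. On the log2 scale the ratio of means was 0.35 for Ly6D+Gfra2- over Ly6D-Gfra2-, 0.15 for Ly6D+Gfra2+ over Ly6D+Gfra2-, and 0.49 for Ly6D+Gfra2+ over Ly6D-Gfra2-. No test was made of this sum, since the members were chosen with earlier results of these data known.

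The first of these ratios rested in part on a single library, Ly6D+Gfra2- replicate 1, whose sum of 1711 CPM was the highest of all 13. Without it the first ratio was 0.14 and the second 0.35. That library also had 96.7 CPM of other RNAs that lack a poly(A) tail (8 genes, among them Rpph1 and Rmrp), against 7.71 to 41.9 CPM elsewhere, and 11636 detected genes, against 12964 to 13364 in the rest of its group; their part in its histone sum was not tested. Without the library labelled Ly6D-Gfra2- replicate 3 as well, the ratios were 0.20, 0.35 and 0.55. Within the T libraries alone the 3 ratios were 0.32, 0.34 and 0.66, and within the P libraries the first was 0.37. The T means were 863.5, 1079 and 1362 CPM, with Ly6D-Gfra2- replicates 4 to 6 between 781 and 932 and Ly6D+Gfra2+ replicates all above them.

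**Figure D1:**
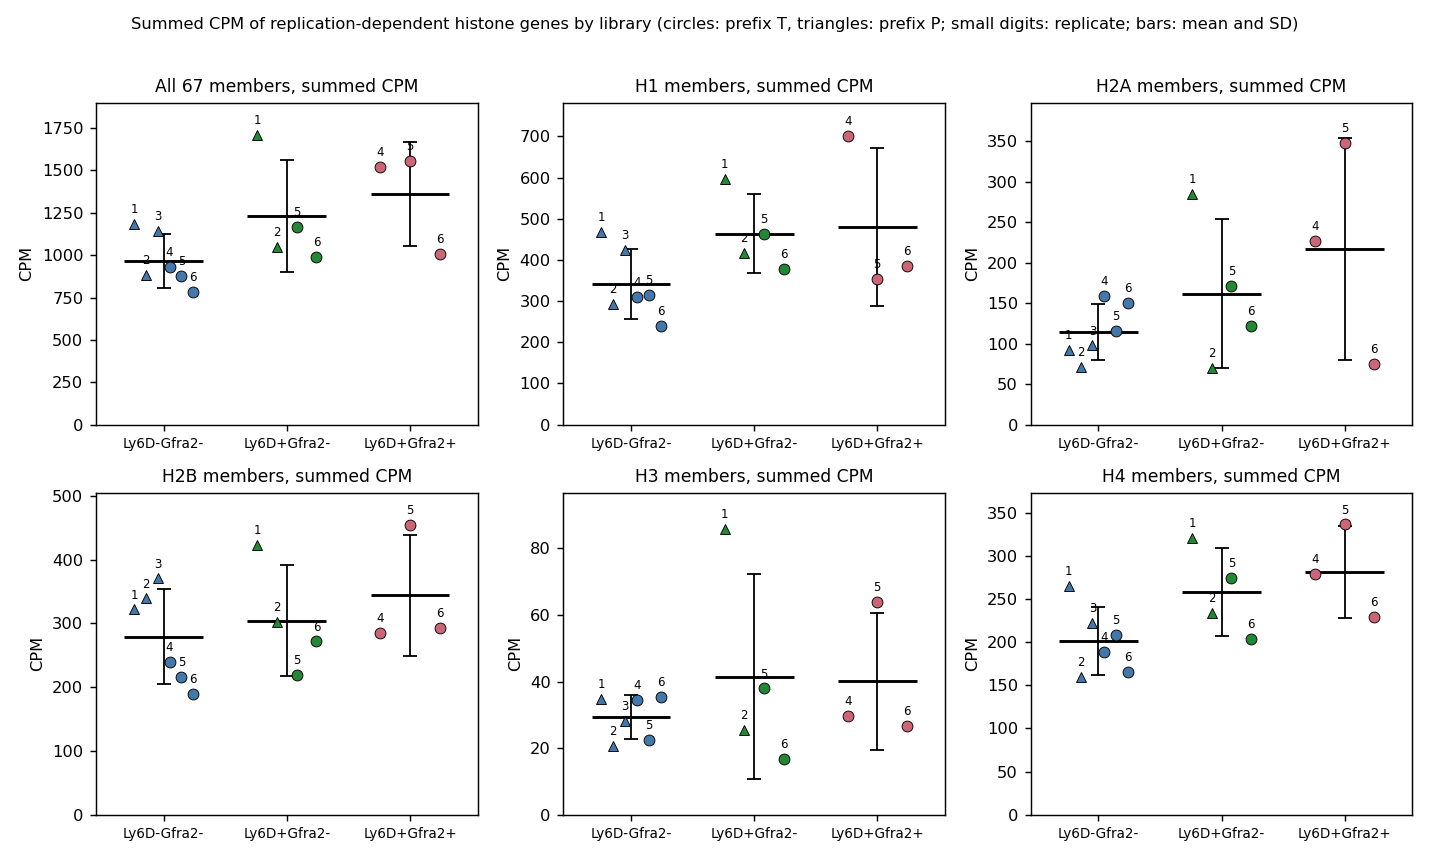
Summed CPM of all 67 members and of the H1, H2A, H2B, H3 and H4 members (y axes, CPM) in each library of the 3 sorted groups (x axes); small digits are replicate numbers, circles prefix T, triangles prefix P, and bars the mean and SD. For all members the Ly6D+Gfra2- replicate 1 point at 1711 stands above the rest of its group (991 to 1166), and in every panel the groups overlap.

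The same picture held within each histone class. H1 members summed to 342 ± 86.0, 464 ± 95.4 and 480.2 ± 191 CPM (SD, n = 6, 4 and 3) in Ly6D-Gfra2-, Ly6D+Gfra2- and Ly6D+Gfra2+. H2A members summed to 114 ± 34.2, 162 ± 91.5 and 217 ± 137 CPM, and H2B members to 279 ± 74.0, 304 ± 86.5 and 344 ± 95.2 CPM. H3 members were the smallest class, at 29.4 ± 6.58, 41.5 ± 30.7 and 40.1 ± 20.7 CPM, and H4 members stood at 202 ± 39.4, 258 ± 51.0 and 281 ± 53.4 CPM. The means of H1, H2A, H2B and H4 stood in the order of the groups, and in each class the group ranges overlapped. The make-up differed between libraries: H4 took between 18% and 23.7% of a library's member counts, H2B 18.8% to 38.4%, H1 22.8% to 46%, H2A 6.68% to 22.4% and H3 1.7% to 5.01%. Nucleosomes hold the core histones in equal number, whereas H3 members had far fewer counts than H4 members in every library. That gap is not read as a difference in mRNA, since many members share sequence and the assignment of shared reads is not known. Of their 50-base stretches, 34.5% in H3c4, 66.3% in H3c6 and 65.6% in H4c4 are unique among the members. The replication-independent H3 genes are also not members. The part of either in the gap was not tested.

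Few genes carried most of the counts. Of the 67 members, 18 had a mean of at least 10 CPM, 24 a mean from 1 to under 10, and 25 a mean under 1. The highest 2, H1f4 (Hist1h1e) and H4c4 (Hist1h4d), held 38.2% of the mean summed CPM and the highest 10 held 79.8%. Per kilobase of transcript the order over the 13 libraries was H4c4 at 510.3 CPM per kb, H1f4 at 294, H2ac15 at 176, H2bc14 at 157, H2bc13 at 118 and H1f5 at 101. Sequence identity limits such levels: 42 members have under 50% of their 50-base stretches unique among the members, and 7 (H1f1, H1f5, H1f6, H2bc18, H2bc21, H2bu2 and H4f16) share none. How reads matching several genes were assigned is not given in the sources used here, so the split between near-identical genes is uncertain. H2ac18 and H2ac19 (Hist2h2aa1 and Hist2h2aa2) had the same count in all 13 libraries, 46 in total each, as had H3c14 and H3c15 (Hist2h3c1 and Hist2h3c2) with 69 each.

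**Figure D2:**
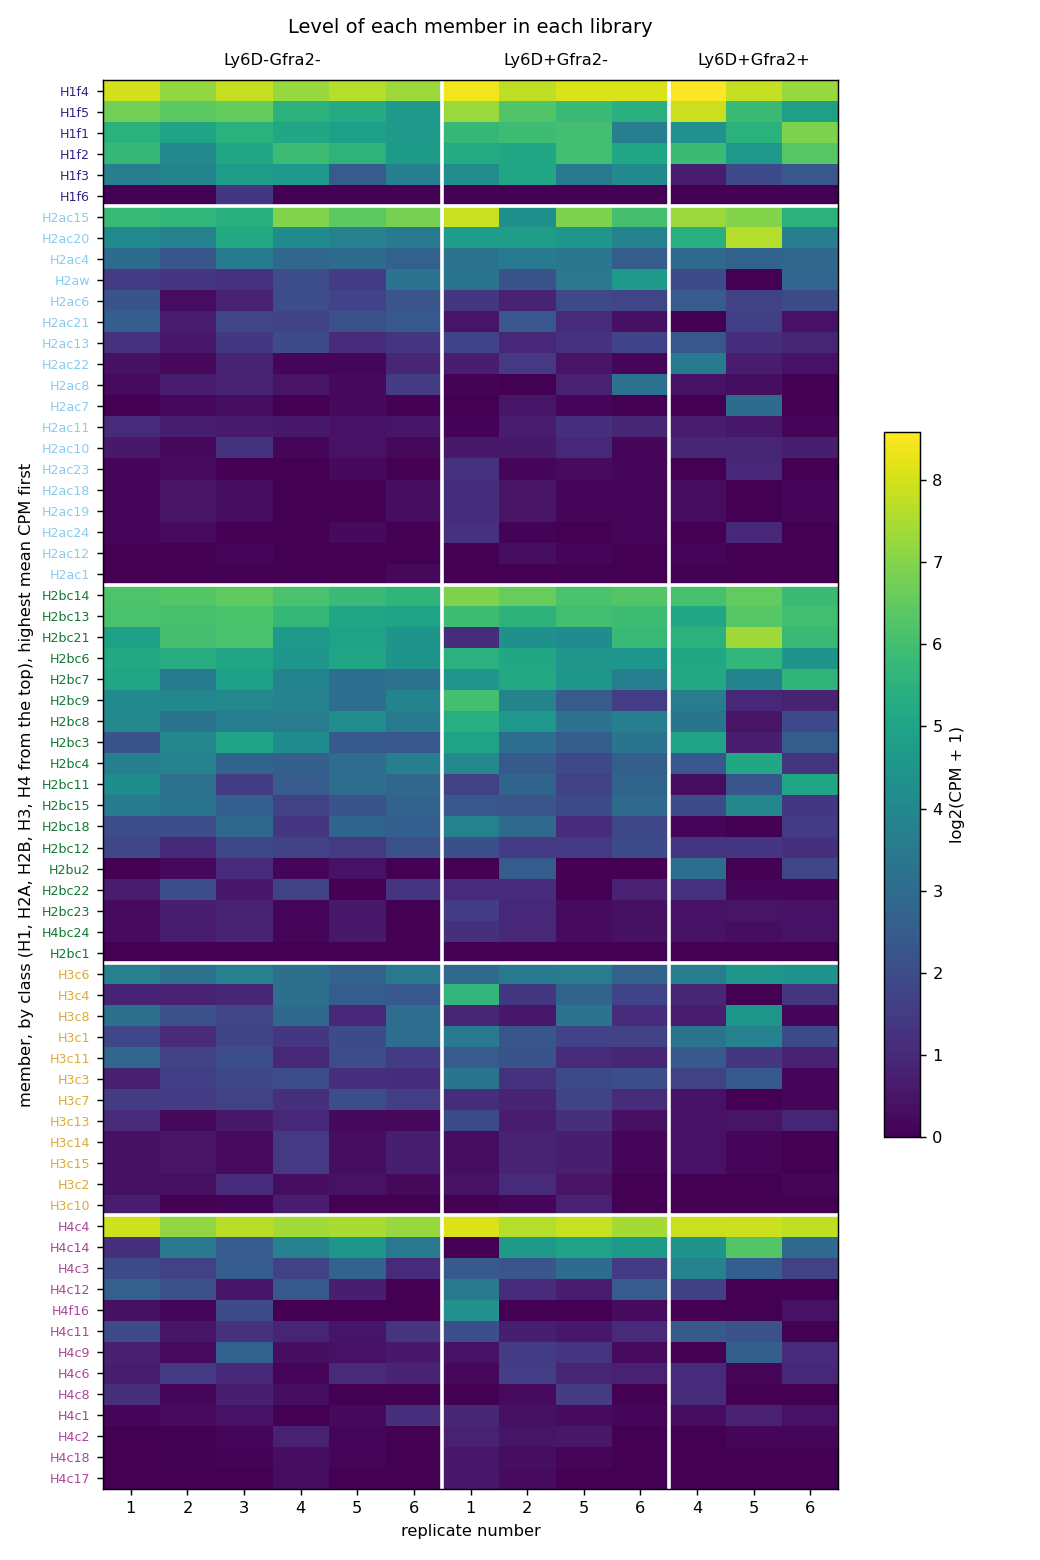
Level of each of the 67 members (rows, by class and then by mean) in each of the 13 libraries (columns, replicate numbers under the 3 groups), coloured by log2(CPM + 1). Bright rows are few (H1f4, H4c4, H2ac15, H2bc14), and Ly6D+Gfra2+ replicate 5 is brightest for H2ac20, H2bc21 and H4c14.

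Among the linker histones H1f4 was highest. Its CPM ran from 147 over a median of 177 to 253 in Ly6D-Gfra2-, was 335, 216, 272 and 274 in Ly6D+Gfra2- replicates 1, 2, 5 and 6, and 384, 228 and 151 in Ly6D+Gfra2+ replicates 4, 5 and 6. The Ly6D+Gfra2- values lay in the upper part of the Ly6D-Gfra2- range or above it, and the Ly6D+Gfra2+ values spanned that range and beyond. H1f5 (Hist1h1b) ran from 24.2 over 65.0 to 107 CPM in Ly6D-Gfra2-, was 155, 75.6, 56.4 and 42.4 in Ly6D+Gfra2-, and 241, 56.9 and 28.6 in Ly6D+Gfra2+. Its high values came from 1 library in each Ly6D+ group. H1f3 (Hist1h1d) went the other way, at 4.62 to 25.4 CPM with a median of 12.9 in Ly6D-Gfra2-, 17.5, 32.1, 9.98 and 16.4 in Ly6D+Gfra2-, and 0.572, 2.75 and 4.004 in Ly6D+Gfra2+. All 3 Ly6D+Gfra2+ values of H1f3 lay below all others, although H1f4, with which H1f3 shares 18% of its 50-base stretches, had its highest value in one of those libraries. H1f1 (Hist1h1a) and H1f2 (Hist1h1c) averaged 34.1 and 38.6 CPM in Ly6D-Gfra2-, 46.4 and 41.5 in Ly6D+Gfra2-, and 61.6 and 53.3 in Ly6D+Gfra2+, with overlapping values.

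Of the H2A genes, H2ac15 (Hist1h2ak) was highest, at 40.4 to 123 CPM in Ly6D-Gfra2-, 230, 19.02, 121 and 64.8 in Ly6D+Gfra2-, and 156, 127 and 44.7 in Ly6D+Gfra2+. Within Ly6D-Gfra2- it split by prefix, with 40.4 to 55.3 CPM in P and 85.4 to 123 in T libraries. H2ac20 stood at 10.9 to 36.5 CPM with a median of 14.3 in Ly6D-Gfra2-, 26.7, 26.7, 22.2 and 13.5 in Ly6D+Gfra2-, and 40.4, 199 and 11.9 in Ly6D+Gfra2+. Only replicate 5 of Ly6D+Gfra2+ lay far above the rest, and replicate 6 lay within the Ly6D-Gfra2- range. H2ac4 (Hist1h2ab) was even, between 3.91 and 10.7 CPM in all 13 libraries. H2aw (Hist3h2a), the H2A gene of the Hist3 cluster, was at 8.95, 3.55, 9.60 and 23.8 CPM in Ly6D+Gfra2-, 1.36 to 8.68 in Ly6D-Gfra2-, and 2.86, 0 and 5.95 in Ly6D+Gfra2+. H2ac21 (Hist2h2ab) was low, at 0.578 to 4.87 CPM in Ly6D-Gfra2-, 0.389, 4.06, 1.03 and 0.304 in Ly6D+Gfra2-, and 0, 2.03 and 0.325 in Ly6D+Gfra2+.

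The highest H2B genes were H2bc14 (Hist1h2bm) and H2bc13 (Hist1h2bl). H2bc14 was at 47.7 to 88.2 CPM in Ly6D-Gfra2-, 120, 94.5, 68.1 and 76.7 in Ly6D+Gfra2-, and 67.6, 90.3 and 56.8 in Ly6D+Gfra2+. H2bc13 was at 30.7 to 70.2 CPM in Ly6D-Gfra2-, 59.1, 46.0, 61.8 and 60.1 in Ly6D+Gfra2-, and 34.6, 80.7 and 62.7 in Ly6D+Gfra2+. All groups overlapped for both. H2bc21, the partner of H2ac20, was at 20.6 to 69.2 CPM in Ly6D-Gfra2-, 1.17, 18.9, 16.9 and 54.2 in Ly6D+Gfra2-, and 45.3, 163 and 54.7 in Ly6D+Gfra2+. Its highest value was in the library in which H2ac20 was highest, and its lowest in Ly6D+Gfra2- replicate 1. H2bc7 (Hist1h2bf) was at 7.67 to 32.5 CPM in Ly6D-Gfra2-, 21.5, 35.1, 22.4 and 12.2 in Ly6D+Gfra2-, and 35.4, 13.6 and 48.1 in Ly6D+Gfra2+. H2bc8 and H2bc9 (Hist1h2bg and Hist1h2bh) reached 41.1 and 64.6 CPM in Ly6D+Gfra2- replicate 1, and at most 22.7 and 16.3 CPM in every other library. H2bc11 (Hist1h2bj) was at 1.90 to 16.9 CPM in Ly6D-Gfra2-, 2.14, 5.88, 2.24 and 5.78 in Ly6D+Gfra2-, and 0.229, 3.95 and 31.7 in Ly6D+Gfra2+. H2bc4 (Hist1h2bc) and H2bc15 (Hist1h2bn) were highest in Ly6D+Gfra2+ replicate 5, at 34.3 and 14.8 CPM, against 4.004 and 2.86 in replicate 4 and 1.52 and 1.62 in replicate 6. In the other groups H2bc4 ranged from 2.70 to 15.5 CPM and H2bc15 from 2.26 to 10.9. H2bc18 (Hist2h2bb), which shares no 50-base stretch with another member, was at 1.55 to 6.51 CPM in Ly6D-Gfra2-, 12.8, 6.90, 1.12 and 2.64 in Ly6D+Gfra2-, and 0.114, 0 and 1.84 in Ly6D+Gfra2+.

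H3 genes were low. H3c6 (Hist1h3e) was highest, at 5.61 to 12.5 CPM in Ly6D-Gfra2-, 6.75, 10.4, 11.4 and 5.58 in Ly6D+Gfra2-, and 11.6, 22.5 and 20.2 in Ly6D+Gfra2+. Its Ly6D+Gfra2+ values all lay above its Ly6D+Gfra2- values, the nearest pair being 11.6 and 11.4 CPM. H3c4 (Hist1h3d) had 49.1 CPM in Ly6D+Gfra2- replicate 1 against 1.62, 5.59 and 2.33 in the rest of that group, 0.711 to 8.09 in Ly6D-Gfra2-, and 0.915, 0 and 1.52 in Ly6D+Gfra2+. H3c4 shares 56% of its 50-base stretches with H3c2, and only 34.5% are unique to it among the members. H3c8 (Hist1h3g) was at 0.572, 22.1 and 0.108 CPM in Ly6D+Gfra2+, a wider spread there than in any other H3 gene. H3c1 (Hist1h3a) was at 1.07 to 7.52 CPM in Ly6D-Gfra2-, 10.5, 3.96, 2.33 and 2.13 in Ly6D+Gfra2-, and 8.81, 12.9 and 2.81 in Ly6D+Gfra2+. H3c13 (Hist2h3b) was between 0.130 and 2.79 CPM in all 13 libraries.

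H4c4 was even across the libraries, at 141 to 249.8 CPM with a median of 173 in Ly6D-Gfra2-, 282, 199, 229.9 and 171 in Ly6D+Gfra2-, and 236, 244 and 218 in Ly6D+Gfra2+. Its Ly6D+Gfra2+ values lay in the upper part of the Ly6D-Gfra2- range. H4c3 (Hist1h4c) was at 1.04 to 5.45 CPM in Ly6D-Gfra2-, 4.22, 3.86, 7.27 and 1.83 in Ly6D+Gfra2-, and 12.9, 4.90 and 2.16 in Ly6D+Gfra2+. H4c14 (Hist2h4, chromosome 3, 96262934 to 96263317), the H4 gene of the Hist2 cluster, ranged from 1.29 to 21.8 CPM in Ly6D-Gfra2-. It was at 0, 24.5, 30.9 and 24.3 in Ly6D+Gfra2-, and at 20.9, 77.7 and 6.93 in Ly6D+Gfra2+. H4f16 reached 19.3 CPM in Ly6D+Gfra2- replicate 1, and every other library had 2.96 CPM or less.

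The Hist2 cluster as a whole was at 52.5 to 121 CPM in Ly6D-Gfra2- (median 68.3) and at 46.6 to 95.6 CPM in Ly6D+Gfra2-. In Ly6D+Gfra2+ it was at 108, 442 and 76.7 CPM in replicates 4, 5 and 6. Replicate 5 set the group mean of 209 CPM, and the other 2 values lay inside or near the range of the other groups. The Hist1 cluster averaged 886, 1136 and 1147 CPM in the 3 groups. The 3 members known to give polyadenylated transcripts (H1f2, H2bc4 and H2bc21) summed to 56.9 to 109 CPM in Ly6D-Gfra2-, 54.2 to 91.9 in Ly6D+Gfra2- and 106 to 220.0 in Ly6D+Gfra2+. The testis-specific genes were near absent, as H2bc1 (Hist1h2ba) was at 0 counts everywhere and H2ac1 (Hist1h2aa) had 1 count in Ly6D-Gfra2- replicate 6. H1f6 (Hist1h1t) had 34 counts, all in the library labelled Ly6D-Gfra2- replicate 3.

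**Figure D3:**
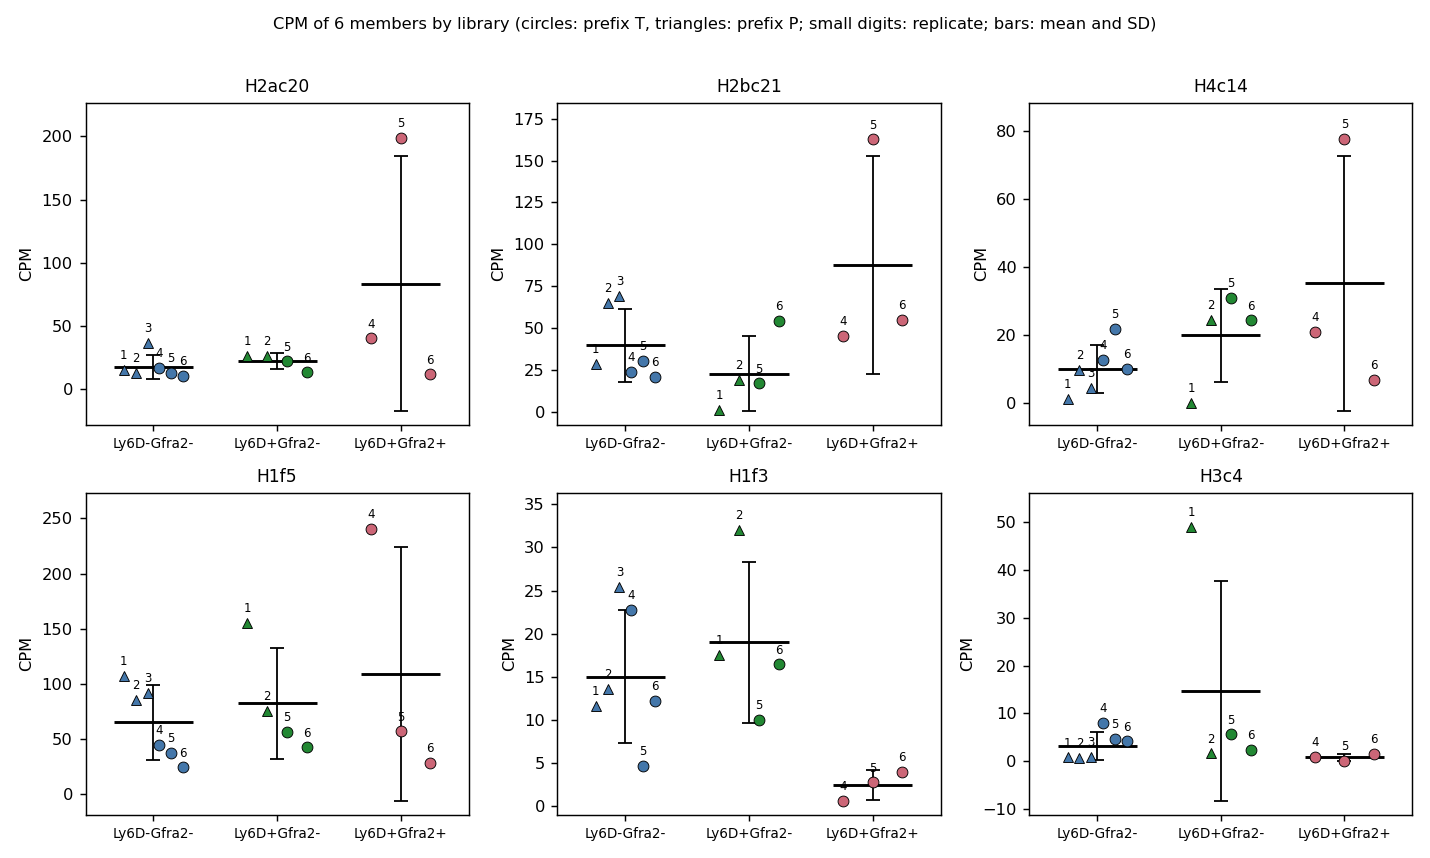
CPM of 6 members (y axes, a scale for each panel) in each library of the 3 sorted groups (x axes); small digits are replicate numbers, circles prefix T, triangles prefix P, and bars the mean and SD. H2ac20, H2bc21 and H4c14 are highest in Ly6D+Gfra2+ replicate 5, H1f5 in Ly6D+Gfra2+ replicate 4 and H3c4 in Ly6D+Gfra2- replicate 1, while H1f3 is below 5 CPM in all 3 Ly6D+Gfra2+ libraries.

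Gene by gene, no member passed the test between any 2 groups. The counts were fitted with edgeR's quasi-likelihood method over all 12722 identifiers that passed the filter on low counts, with the group and the prefix as terms, and p-values were adjusted by Benjamini and Hochberg over all of them. Of the 67 members 43 passed that filter; the other 24 held 0.883% of the mean summed CPM. The filter keeps a gene that is high in 1 group alone, so the counts over the 43 describe and support nothing. The 3 comparisons share libraries, and their values for a member are not independent of each other. The count of members past the test was also 0 in each comparison when the library labelled Ly6D-Gfra2- replicate 3 was left out, and the member nearest the threshold, H2ac20, moved from 2.61 to 2.72 (log2, adjusted p = 0.08948) between Ly6D+Gfra2+ and Ly6D-Gfra2-.

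Between Ly6D+Gfra2- and Ly6D-Gfra2-, which differ in the surface protein Ly6D, the class sums overlapped and 0 of 43 members passed the test with edgeR (background 0% of all genes). At an unadjusted p under 0.05 stood 1 member, higher in Ly6D+Gfra2- (background 2.66%), and 0 lower (background 2.04%). DESeq2 (background 0.363%) and limma's voom, run here and below with library quality weights (background 0.00786%), also called 0 members. The 1 member was H1f4, at 274 against 188 CPM on average, with a log2 fold change of 0.55 ± 0.25 (SE) and an adjusted p of 0.9995. H4c4 had a log2 fold change of 0.28 ± 0.20, H2ac15 of 0.62 ± 0.53, H2bc14 of 0.37 ± 0.27 and H1f5 of 0.38 ± 0.45 (SE), so each of these was within about 2 SE of 0. The value with the largest size, 2.85 ± 1.68 for H3c4, was 0.14 without Ly6D+Gfra2- replicate 1. H2aw was at 1.94 ± 1.03 and H4c14 at 1.06 ± 0.98, and H2bc11 at -0.87 ± 1.04 and H2bc21 at -0.81 ± 0.79 (log2, SE). The median log2 fold change of the 43 was 0.26 against -0.01 for all genes tested, and 14 of the 43 had a value below 0 (background 50.4%). No member had libraries of the 2 groups apart (background 0.582% higher and 0.951% lower).

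Between Ly6D+Gfra2+ and Ly6D+Gfra2-, which differ in Gfra2, 0 of 43 members passed the test with edgeR (background 0.409%, of which 0.204% higher and 0.204% lower). At an unadjusted p under 0.05, 2 members were higher in Ly6D+Gfra2+ (background 6.21%) and 2 lower (background 6.97%). The higher members were the neighbours H2ac20 and H2bc21. H2ac20 differed by 2.26 ± 0.78 (log2, SE, adjusted p = 0.2169) and H2bc21 by 1.94 ± 0.84 (adjusted p = 0.3351). Both moved with Ly6D+Gfra2+ replicate 5, and without it they were 0.58 and 1.13. The lower members were H1f3, with -2.60 ± 0.95 (SE, adjusted p = 0.2466), and H3c4, with -4.98 ± 2.12 (adjusted p = 0.3213). H3c4 was -2.70 without Ly6D+Gfra2- replicate 1, while H1f3 stayed between -3.16 and -2.14 under all alternatives. DESeq2 called these 2 of the 55 members it gave an adjusted p, H1f3 at 0.01984 and H3c4 at 0.01792, a share of 3.64% against 5.34% of all genes, and limma's voom called 0 (background 0.197%). The adjusted p of H1f3 ran from 0.01984 to 0.9989 over its alternatives.

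In the same comparison the libraries of the 2 groups stood apart for 1 member that was higher, H3c6 (background 4%), and for 4 that were lower, H1f3, H2bc12, H3c4 and H3c7 (background 5.71%). H2bc12 (Hist1h2bk) and H3c7 (Hist1h3f), both named after their values were seen, averaged 1.45 and 0.151 CPM in Ly6D+Gfra2+ and 2.39 and 1.38 in Ly6D+Gfra2-. For H3c6 the log2 fold change was 1.23 ± 0.79 (SE), with an adjusted p of 0.5305. Of the 5 members with the highest mean CPM, H1f4 differed by -0.02 ± 0.32, H4c4 by 0.21 ± 0.26, H2ac15 by -0.32 ± 0.71 and H2bc14 by -0.04 ± 0.35 (log2, SE). The other, H1f5, differed by 1.20 ± 0.58 (unadjusted p = 0.05468, adjusted p = 0.3876), and by -0.16 without Ly6D+Gfra2+ replicate 4, its highest library. H2bc11 was at 1.74 ± 1.29, H2bc4 at 1.44 ± 1.14, and H3c8 at 1.25 (adjusted p = 0.7781). H2aw was at -2.53 ± 1.40, H2bc18 at -2.39 ± 1.65 and H2bc8 at -1.97 ± 1.05. None of these 6 had an unadjusted p under 0.05. The median over the 43 was 0.21 against 0.03 for all genes tested, and 19 of the 43 were below 0 (background 48.9%).

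Between Ly6D+Gfra2+ and Ly6D-Gfra2-, the ends of the sort, 0 of 43 members passed the test with edgeR (background 1.39%, of which 0.928% higher and 0.464% lower), although 177 of all genes did. At an unadjusted p under 0.05 were 4 members higher in Ly6D+Gfra2+ (background 7.63%) and 2 lower (background 7.72%). The member nearest the threshold was H2ac20, with 83.7 against 17.6 CPM on average, a log2 fold change of 2.61 ± 0.72 (SE) and an adjusted p of 0.09036. Its value rested on Ly6D+Gfra2+ replicate 5: without that library it was 0.93 (adjusted p = 0.5592), and without replicate 6, where it was lowest, 3.12 (adjusted p = 0.01947). Without the filter on low counts H2ac20 passed at 0.03525, as 1 of 66 members (background 1.97%). With DESeq2 it passed at 0.007421, and within the T libraries it did not, at 0.2559. H1f5 differed by 1.58 ± 0.54 (log2, SE, adjusted p = 0.1762), which was 2.03 without Ly6D+Gfra2+ replicate 6 (adjusted p = 0.03515) and 0.22 without replicate 4 (adjusted p = 0.8302). H2ac20 and H1f5 were the 2 of 48 members past the test without replicate 6 (background 2.80%).

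The other 2 higher members of that comparison were H2bc7, with 1.6 ± 0.66 (log2, SE, adjusted p = 0.2504), and H2bu2 (Hist3h2ba), with 5.13 ± 2.19 (adjusted p = 0.2735). H2bu2 had 7.67, 0 and 2.49 CPM in Ly6D+Gfra2+ (67, 0 and 23 counts). It had at most 1.02 CPM in Ly6D-Gfra2- (21 counts), so its fitted value rests on low and uneven counts. The lower members were H1f3, with -2.32 ± 0.89 (adjusted p = 0.2247), and H3c7, with -3.88 ± 1.67 (adjusted p = 0.2757). These 2 were also the members whose Ly6D+Gfra2+ libraries all lay below the Ly6D-Gfra2- libraries (background 6.19%), and 0 members lay wholly above (background 4.03%). DESeq2 called H1f3 (adjusted p = 0.02392), H2ac20 and H3c7, 3 of the 55 members it gave an adjusted p or 5.45%, against 7.18% of all genes, and limma's voom called 0 (background 0.857%). H4c4 was at 0.49 ± 0.24 and H1f4 at 0.53 ± 0.30 (log2, SE). H3c1 at 1.47 ± 1.07, H4c14 at 1.31 ± 1.17, H2bc8 at -1.39 ± 0.92 and H2bc9 at -0.89 ± 1.02 had no unadjusted p under 0.05. The median over the 43 was 0.40 against 0.01 for all genes tested, and 11 of the 43 were below 0 (background 49.4%). Scaling by library size alone put these medians at 0.12 and -0.25, a difference of about the same size.

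**Figure D4:**
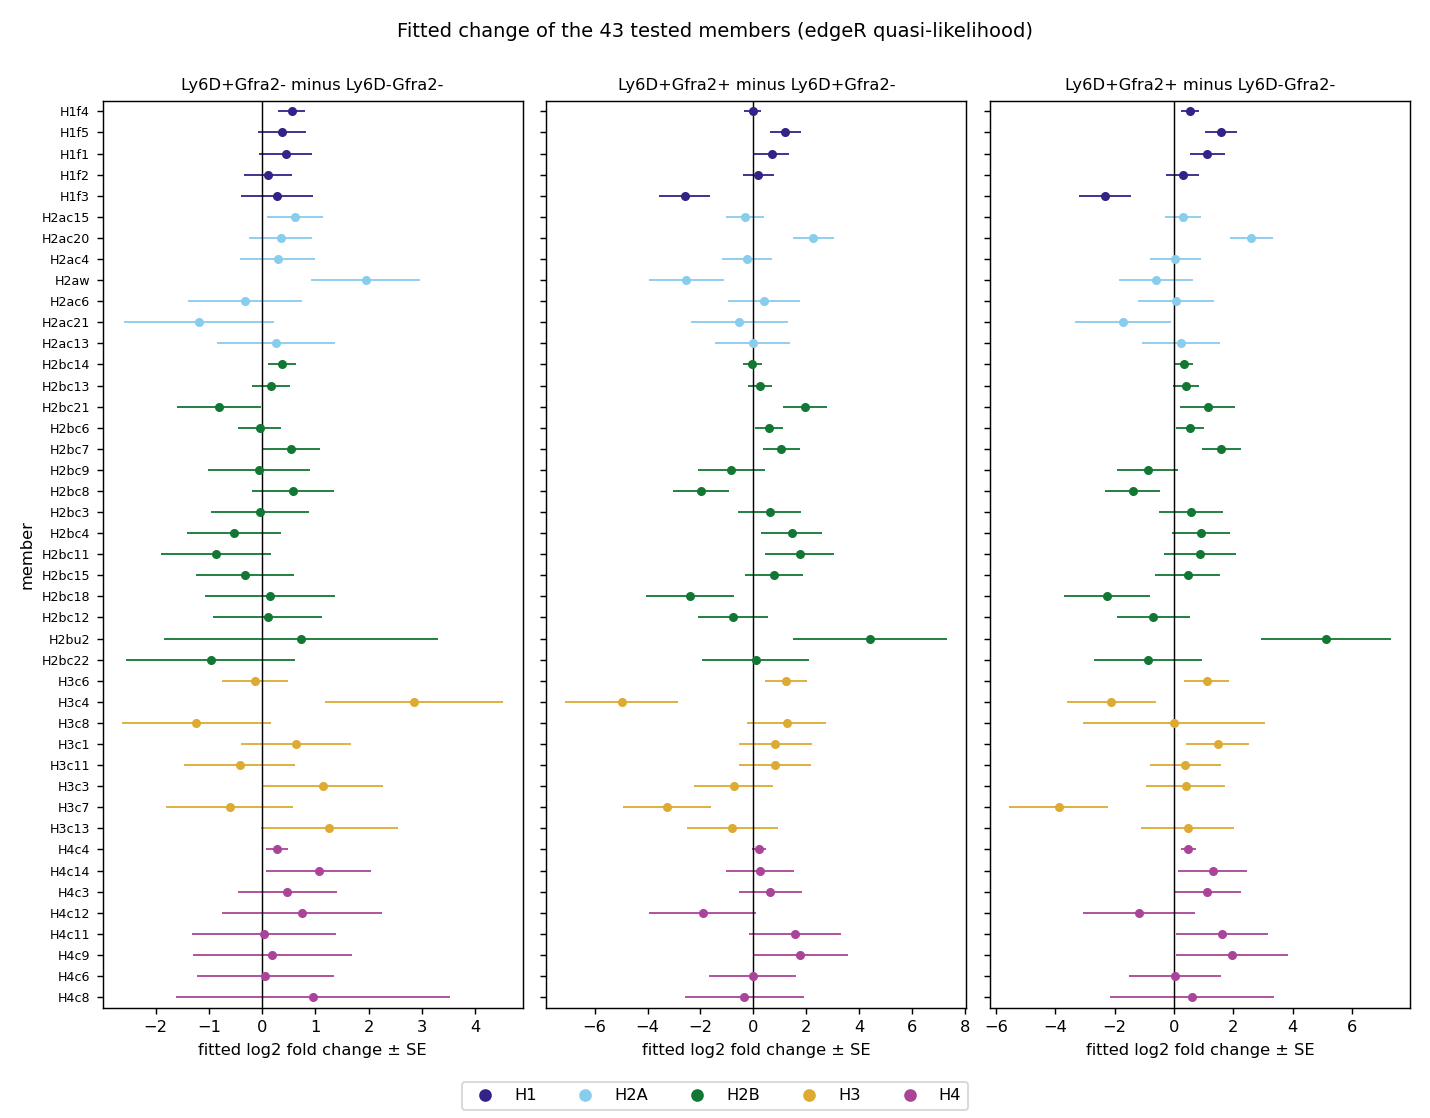
Fitted log2 fold change with its SE (x axes) of the 43 tested members (y axis, coloured by class) in the 3 comparisons. Most points lie within 2 SE of 0 and none passed the adjusted threshold; H2ac20 (2.61) and H1f3 (-2.32) in the right panel are among the values farthest from 0 relative to their SE.

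The genes that make and bind histone mRNA were set beside the members. Of 27 genes for histone mRNA transcription and end processing, 0 passed the test in any comparison, and at an unadjusted p under 0.05 were 1, 3 and 3 higher in the order of the comparisons above (background 2.66%, 6.21% and 7.63%) and 1, 1 and 0 lower (background 2.04%, 6.97% and 7.72%). Slbp was at 57.1 to 102 CPM in Ly6D-Gfra2-, 346, 101, 114 and 72.0 in Ly6D+Gfra2-, and 73.1, 25.8 and 86.9 in Ly6D+Gfra2+. Its highest value was in Ly6D+Gfra2- replicate 1, where the histone sum was also highest, and its lowest in Ly6D+Gfra2+ replicate 5, where the histone sum was second. In the first comparison Slbp differed by 0.99 ± 0.38 (log2, SE, adjusted p = 0.9689). Npat was at 85.4 to 165 CPM in Ly6D-Gfra2-, 161, 156, 178 and 172 in Ly6D+Gfra2-, and 110, 58.2 and 102 in Ly6D+Gfra2+. All Npat values of Ly6D+Gfra2+ lay below those of Ly6D+Gfra2- (-0.75 ± 0.31, log2, SE, adjusted p = 0.3119). Cpsf2, which codes for the CPSF100 subunit of the cleavage complex, was at 151, 321 and 296 CPM in Ly6D+Gfra2+ and 105 to 192 in Ly6D-Gfra2-, with 1.0 ± 0.28 (log2, SE, adjusted p = 0.09314).

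S-phase genes, replication-independent histones and histone chaperones likewise had 0 genes past the test with edgeR. At an unadjusted p under 0.05, and against the same background, the 3 comparisons had 2, 2 and 1 higher and 0, 2 and 0 lower of 36 S-phase genes. Of 20 genes of G2 and mitosis 0, 1 and 1 were higher and 0, 2 and 2 lower. Of 11 replication-independent histone genes 0, 0 and 0 were higher and 0, 1 and 2 lower, and of 16 chaperone genes 0, 0 and 0 higher and 0, 3 and 1 lower. The 36 S-phase and replication genes summed to 4423 ± 418, 4773 ± 546 and 4202 ± 380 CPM (SD) in the 3 groups, with median log2 fold changes of 0.16, -0.17 and -0.04 in the 3 comparisons. These means mix the prefixes. In the Gfra2- groups the P libraries were at 4709 to 5559 CPM and the T libraries at 3884 to 4484. The Ly6D+Gfra2+ libraries, all T, were at 3830 to 4589 and overlapped those T libraries. The 20 genes of G2 and mitosis summed to 6042 ± 1155, 6275 ± 1018 and 6469 ± 401 CPM, with medians of -0.02, 0.00 and 0.08. The S-phase means did not stand in the order of the histone means. Those of G2 and mitosis did, but by less than the larger SD of each pair. The 11 replication-independent histone genes summed to 3521 ± 458, 3727 ± 495 and 3382 ± 923 CPM, above the histone members in every library. Among them the linker histone H1f0, known from cells that stop dividing, was at 9.38, 0.956 and 2.60 CPM in Ly6D+Gfra2+. In Ly6D-Gfra2- it was at 5.82 to 46.3 CPM (26.1 ± 13.9, SD, n = 6), and in Ly6D+Gfra2- at 26.4, 31.8, 38.8 and 5.47. Its Ly6D+Gfra2+ values thus overlapped both other groups. Against Ly6D-Gfra2- the log2 fold change was -2.45 ± 0.94 (SE, adjusted p = 0.2238). The 16 chaperone and acetyltransferase genes summed to 2446 to 2793 CPM in Ly6D+Gfra2+, below the 2846 to 3495 of Ly6D-Gfra2- and the 2967 to 3831 of Ly6D+Gfra2-. These sums also split by prefix: in the Gfra2- groups the P libraries were at 3393 to 3831 CPM and the T libraries at 2846 to 2979. All Ly6D+Gfra2+ libraries are T, so much of the gap to the P libraries cannot be told apart from the prefix. With the prefix as a term the median log2 fold changes were 0.16, -0.13 and 0.11.

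**Figure D5:**
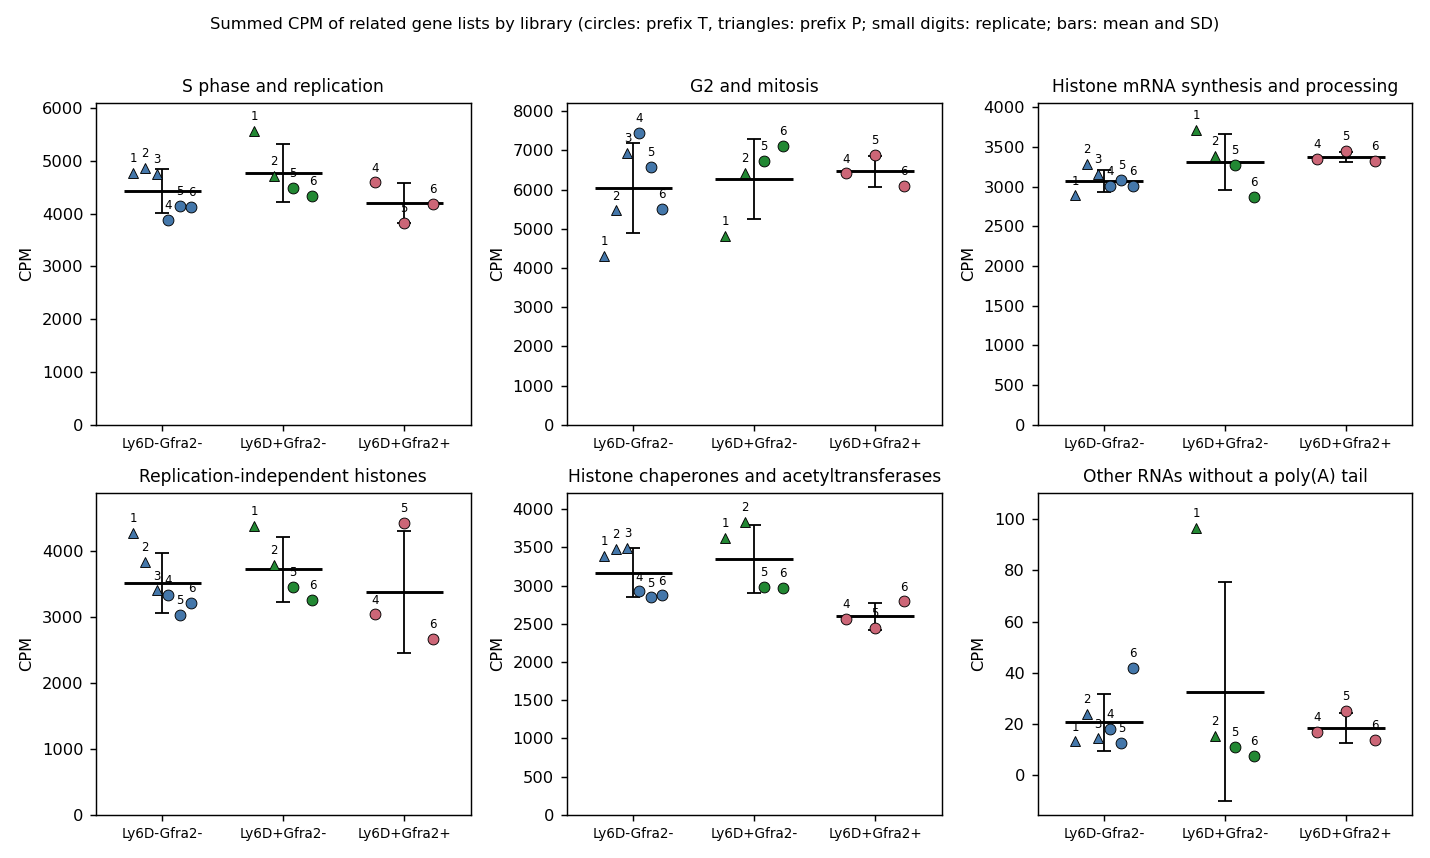
Summed CPM of 6 related gene lists (y axes, CPM, a scale for each panel) in each library of the 3 sorted groups (x axes); small digits are replicate numbers, circles prefix T, triangles prefix P, and bars the mean and SD. The S-phase sums overlap between all groups, and Ly6D+Gfra2- replicate 1 stands apart in the panel of RNAs without a poly(A) tail (96.7). The chaperone sums of Ly6D+Gfra2+ (2446 to 2793, all T) lie lowest, near the T libraries of the other groups (2846 to 2979) and farther from the P libraries.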

How the data were processed

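RNA-seq counts per RefSeq transcript identifier of 13 libraries were used as the authors deposited them. Per the submitters' processing notes FastQC, HISAT, TopHat, HOMER and DESeq were used with the mm10 assembly, without roles or versions; the treatment of reads that match several genes, strand use and read length are not given in the sources used here. Identifiers were named through RefSeq (GRCm38.p6) and GENCODE M21 tables: 23815 and 144 matched, 113 did not.

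Counts were divided by the total count times the TMM factor to give CPM (per 1e+06 counts) and tested with edgeR 4.0.16 (R 4.3.3; quasi-likelihood, the filterByExpr filter at min.count 10 and min.total.count 15, group and prefix as terms, Benjamini-Hochberg, two-sided, threshold 0.05), checked on simulated data. The SE of a fitted log2 fold change is its absolute value divided by the square root of the quasi-likelihood F. It is thus derived from the test and unreliable where the fold change is near 0. A count of 3 corresponds to 0.127 to 0.435 CPM in the libraries, and this covers counting error only. Alternatives were DESeq2 1.42.0, limma 3.58.1 with voom and a quality weight for each library, other scalings and filters, other terms and each library left out. The members and lists were chosen with earlier results of these data known. Members named were mainly those with the 3 highest mean CPM of each class, up to 5 in each direction with the largest fitted change in each comparison (5 CPM or more on average in 1 of the groups), and the testis-specific, polyadenylated and non-Hist1 members. From the other lists the 4 genes with the smallest p could be named. No protein sequences were used here.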

Additional observations from a re-analysis of the deposited data

Results flagged for a closer look

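Of 78 group values examined (single members and cluster sums in the groups of 6 and 4 libraries), 12 had a highest or lowest library whose gap to the next, divided by the group's range, passed Dixon's limit. Chance gives about 1 in 20 for independent values from a normal distribution, which CPM of low genes and sums that hold their own members are not. The same limit was passed by 12.9% of the groups over all genes tested, against 15.4% here, and nothing is read from the number. Each was a high library. In Ly6D+Gfra2- these were H3c4 in replicate 1 (49.1 CPM, next 5.59), H3c8 in replicate 5 (8.67 CPM, next 1.12), H1f2 in replicate 5 (61.7 CPM, next 37.6), H2bu2 in replicate 2 (4.72 CPM, next 0) and the Hist3 cluster sum in replicate 6 (23.8 CPM, next 9.60). In Ly6D-Gfra2- replicate 6 stood high for H2aw (8.68 CPM, next 3.09), for the Hist3 sum that holds it (8.68 CPM, next 3.21), for H3c1 (Hist1h3a; 7.52 CPM, next 2.89) and for H2ac1 (0.130 CPM, next 0). The library labelled Ly6D-Gfra2- replicate 3, whose Ly6d level goes against its label, stood high for H2ac20 (36.5 CPM, next 16.8), H1f6 (1.65 CPM, next 0) and H2bu2 (1.02 CPM, next 0.330). The value of H2ac1 rests on 1 count and that of H1f6 on 34. Those of H2bu2 rest on 21 counts in this library and 93 in Ly6D+Gfra2- replicate 2. No cause was tested.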

How the results depend on the processing

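The count of members past the threshold was 0 in all 3 comparisons, and 0 under all alternatives in the first. In the second DESeq2 gave 2; in the third DESeq2 gave 3 and the fit with no low-count filter 1. Leaving out single libraries gave 0, 0 and 0 to 2 members, and without Ly6D+Gfra2+ replicate 6 the third count was 2 (H2ac20 and H1f5). The cause was not tested. Over all genes the counts were 0, 52 and 177 with edgeR, 54, 700 and 940 with DESeq2, 1, 25 and 109 with limma's voom, and 0, 48 and 111 with library size alone, which moved the all-gene median to -0.09, -0.15 and -0.25 and that of the members to 0.15, 0.04 and 0.12. That scaling changed the higher and lower calls of the third comparison from 118 and 59 to 45 and 66. Replicate numbers showed no clear pairing: 1 of 9 pairs correlated above 0.1, and 4 of 12 libraries correlated best with their own number. The correlated values were deviations from group means that still held the prefix, so this check cannot exclude pairing. The fit with a replicate block in place of the prefix called 0 members in each comparison and 8, 25 and 92 of all genes. The fit on prefix P alone could be run only for the first comparison. Of 29 named members, 13, 14 and 19 kept their sign under every alternative run. The log2 ratio of summed CPM, 0.35, 0.15 and 0.49, ranged with single libraries left out over 0.14 to 0.44, 0.04 to 0.35 and 0.39 to 0.67. It was 0.24, 0.07 and 0.31 with no scaling factor, 0.29, 0.46 and 0.74 from medians, and, as alternatives chosen after seeing the data, 0.35, 0.15 and 0.50 with near-identical pairs counted once and 0.33, 0.22 and 0.55 over members with mostly unique sequence. Members under 1 CPM rest on too few counts to show a difference.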

Other observations

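Within Ly6D-Gfra2-, the only group with 3 libraries of each prefix, 8 of the 43 tested members had P and T libraries that did not overlap, 4 higher and 4 lower in T (9.30% each). Over all 12722 genes tested 1094 were higher and 1229 lower in T (9.66%), so the members' share is near the background. The H2B sum was 322 to 371 CPM in P and 189.7 to 239 CPM in T, and the H2A sum 71.7 to 97.9 CPM in P and 115 to 159 CPM in T. H1f5 was at 85.5 to 107 CPM in P and 24.2 to 44.5 in T, H2bc13 at 67.4 to 70.2 and 30.7 to 51.3, and H3c4 at 0.711 to 0.875 and 4.15 to 8.09. The fit has the prefix as a term, and no test of these differences was made.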
